A study of Mus musculus with 10 samples.

Results

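Tumor-associated macrophages (TAM) were compared with myeloid-derived suppressor cells (MDSC) of the spleen in mice with intact SHP-2. The comparison used the 3 TAM_Shp2f/f and the 2 MDSC_Shp2f/f libraries, 5 of the 10 RNA-sequencing libraries of the study, chosen by the group names in the sample titles and scaled together from raw read counts. All 5 came from adult Shp2f/f mice, in which both alleles of Ptpn11, the gene of the phosphatase SHP-2, are floxed and no Cre is present, at day 15 of growth of a fibrosarcoma (M17 in the labels, MC17-51 in the study's methods) under the skin. The other 5 libraries came from Shp2f/fLysMcre mice, in which Cre expressed from the lysozyme M locus targets Ptpn11 for deletion in myeloid cells. MDSC were GR-1+ cells taken from the spleen with magnetic beads, and the methods describe them as the Ly6G+ Ly6C- granulocytic subset. TAM were sorted as live CD45+ CD11b+ F4/80+ Ly6G- cells from tumors digested with collagenase. Cell type, organ, tissue digestion and isolation method therefore cannot be told apart in this comparison. The cells came from the same set of mice, but the labels do not say which libraries shared a mouse, and pooling of mice within a library was neither stated nor denied, so the p-values measure the spread between libraries.

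MDSC are immature granulocytic and monocytic cells that accumulate in the blood, spleen and tumor of tumor-bearing hosts and restrain T cells. TAM arise largely from monocytes that enter the tumor, and they are known for uptake of debris and lipid, matrix remodeling, angiogenic factors and chemokines that recruit further leukocytes. SHP-2 binds phosphorylated tyrosines on growth factor receptors, adaptors and inhibitory receptors, and carries signals from growth factor receptors to the Ras pathway.

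With SHP-2 intact, TAM held more transcript of nearly every gene on a chosen list of CC and CXC chemokines. They also held more transcript of several cathepsins and matrix metalloproteinases, C1q, the mannose receptor and arginase 1. MDSC held more transcript of neutrophil granule genes, of S100a8 and S100a9, and of monocyte genes such as Ccr2, Plac8 and Ly6c2. The cells differed at most tested genes: 12343 of 15659, or 78.8%, passed edgeR's quasi-likelihood test at a Benjamini-Hochberg adjusted p under 0.05, and every count of called genes below is to be read against that share. Of the 20 chemokine genes on that list, 19 were higher in TAM and 0 in MDSC, with a median log2 fold change (TAM minus MDSC) of 5.05. Of 14 specific and gelatinase granule genes on another chosen list, 13 were higher in MDSC and 0 in TAM, with a median of -4.89. That list did not hold Mmp9, the gene of gelatinase B, which was higher in TAM. It did hold the mitochondrial arginase gene Arg2, called higher in MDSC by only 0.21. The median over all tested genes was 0.01. The lists were chosen with earlier results of these data known. Members near 0 in a group, such as several chemokine genes in MDSC, passed the filter on low counts only through the other group. They had to differ, so these list counts are a description and no support.

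Total counts were between 33018861 and 38222998 per library. The cell types were separated by the first principal component of the log2 expression values, which held 95.6% of the variance, and the biological coefficient of variation, the spread between libraries of a group beyond counting noise, was 0.0750 in MDSC and 0.0625 in TAM. Chi-square comparison of replicate counts gave 29.1 per degree of freedom in the MDSC pair and between 5.36 and 17.0 in the TAM pairs, so no pair was alike within sampling noise. MDSC replicate 1 stood apart in Gm42418, a gene that overlaps ribosomal RNA sequence, which took 0.932% of its counts against 0.0720% in MDSC replicate 2 and 0.0537% to 0.0922% in TAM. Without that replicate 11915 genes were called, and without TAM replicate 3, which stood apart in pancreatic islet transcripts, 11823 were. Of the called genes, 6264 (40% of those tested) were higher in TAM and 6079 (38.8%) were higher in MDSC. Called genes that differed by at least 1 on the log2 scale numbered 6146 (39.2%), of which 3301 were higher in TAM (21.1%) and 2845 in MDSC (18.2%), and differences of at least 5 were found at 735 and 392 genes. The values of the groups did not overlap at 86.2% of tested genes.

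Ptpn11 was at 116 and 101 CPM (counts divided by the TMM-scaled library size, on the usual CPM scale) in the MDSC libraries and at 124, 127 and 124 CPM in the TAM libraries. The TAM values were all above the MDSC values, by a log2 fold change of 0.20 (SE 0.06, edgeR adjusted p = 0.011), and leaving out TAM replicate 2 brought it to 0.18, which no longer passed the threshold. SHP-2 transcript was thus present in both cell types, 1.15-fold higher in TAM. Lyz2, whose locus drives Cre in the other mice, was at 9209 and 9665 CPM in MDSC and at 3547, 3721 and 3529 CPM in TAM, so every macrophage library held less of it (log2 fold change -1.39, SE 0.04).

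The markers used to isolate the cells were then checked. Itgam, the gene of CD11b, was at 397 and 403 CPM in MDSC and at 364, 360.5 and 396 CPM in TAM, and did not pass the test (log2 fold change -0.10, SE 0.05, edgeR adjusted p = 0.12). Adgre1, the gene of the TAM sorting marker F4/80, was higher in TAM, at 653, 689 and 653 CPM, but was also at 393 and 386 CPM in MDSC. Ptprc, the gene of CD45, was 3.01-fold higher in MDSC, with 2105 and 1861 CPM against 647 to 667 CPM. Ly6g, the gene of the granulocyte antigen that GR-1 antibody sees together with Ly6C, was at 12.2 and 9.11 CPM in MDSC and at 0.212, 0.291 and 0.0840 CPM in TAM. It thus followed the gates in direction (log2 fold change -5.73, SE 0.28) while standing at a low level in the MDSC libraries. Ly6c2, the gene of the monocyte antigen Ly6C, was at 489 and 531 CPM in MDSC, above the 129, 139 and 128 CPM of TAM. Ly6c1, its neighbor gene, was at 2.02 to 3.33 CPM in all libraries and did not pass the test.

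Monocyte genes were high in the MDSC libraries, which bears on the label. On the TPM scale, which corrects the counts for gene length and depth, the level of Ly6c2 in MDSC was 552 ± 32.1 TPM and that of Ly6g was 33.6 ± 6.93 TPM (SD, n = 2). Csf1r, the receptor gene for the macrophage growth factor CSF-1, was at 1458 and 1473 CPM in MDSC and at 1494, 1526 and 1464 CPM in TAM, with overlapping values (log2 fold change 0.03, SE 0.04). Ccr2, the receptor by which monocytes leave the marrow, was at 2017 and 1945 CPM in MDSC against 393, 436 and 419 CPM in TAM. The monocyte transcripts in these libraries were high for a Ly6C- granulocytic gate as the methods describe it, while the label GR-1+ covers cells with Ly6G or Ly6C. RNA of bulk samples and a gate on surface protein are unlike measures. Neutrophil genes were also present in MDSC, such as Csf3r at 736 and 636 CPM. The name MDSC is kept below for the cells so labelled. As these are bulk samples, fewer cells of a type and less RNA per cell cannot be told apart for any gene given here.

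**Figure D1:**
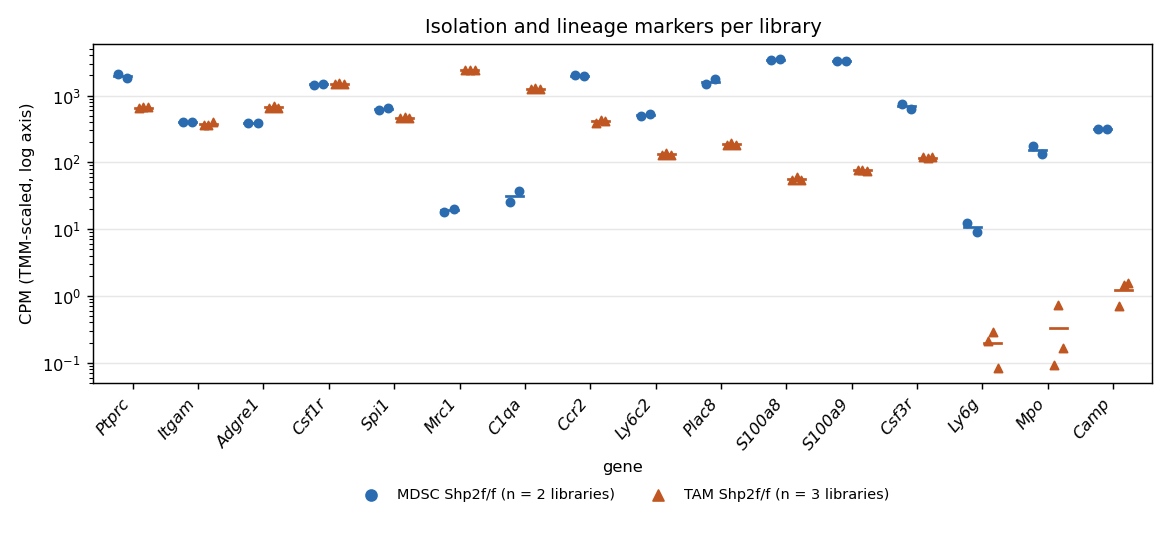
CPM per library, on a log axis, of genes of isolation markers (Ptprc, Itgam, Adgre1, Ly6g) and of lineage markers; points are libraries (circles, MDSC, n = 2; triangles, TAM, n = 3) and bars are group means. Csf1r and Itgam lie at the same height in both groups, Mrc1 and C1qa lie higher in TAM, and every gene drawn from Ccr2 to Camp lies higher in MDSC, with Ly6g at 12.2 and 9.11 CPM there.

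Among called genes that differed by at least 2 on the log2 scale with no overlap between groups, several of those at the highest levels on the TAM side encode secreted matrix, lipid and lysosomal proteins. Thbs1, the gene of the matricellular protein thrombospondin-1, was at 7064, 7152 and 6933 CPM in TAM and at 730.4 and 667 CPM in MDSC, which is 10.1-fold higher. Mmp9, the gene of gelatinase B, was at 4080.1, 4322 and 4086 CPM against 173 and 124 CPM. Apoe, the gene of the lipid carrier apolipoprotein E, was at 3378 to 3551 CPM against 541 and 624 CPM. In these 3 genes MDSC also held a clear level. Ctsk, the gene of the collagen-degrading protease cathepsin K (chromosome 3, 95499256 to 95509362, in the GRCm38 build), was nearly silent in MDSC, at 2.36 and 2.06 CPM, and at 2114, 2189 and 2082 CPM in TAM, a difference of 9.91 on the log2 scale (SE 0.08). Dab2, an endocytic adaptor gene, was at 1740.2, 1750.2 and 1726 CPM in TAM against 6.65 and 6.72 CPM. These genes were chosen for their separation between the groups, and in all of them the TAM libraries lay close together.

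The largest folds among genes that reached 50 CPM on average in TAM belonged to genes with few counts in MDSC. Arg1, the gene of arginase 1, which removes the arginine that T cells need, had 13 counts in the MDSC libraries together. It was at 0.239 and 0.147 CPM there and at 390.3, 402 and 389 CPM in TAM, a log2 fold change of 10.97 (SE 0.11, edgeR adjusted p = 8.8e-12). Atp6v0d2, the gene of a subunit of the proton pump of lysosomes and osteoclasts, was at 0.119 and 0.0884 CPM against 285, 311 and 307 CPM. Pdpn, the gene of the membrane glycoprotein podoplanin, was at 0.149 and 0.118 CPM against 218, 228 and 221 CPM. Each was present in every TAM library and nearly absent from both MDSC libraries, which follows in part from choosing the largest folds. Ccl8, a monocyte attractant, had 1 count in the MDSC libraries together and 31466 counts in the TAM libraries, a ratio of 19629 with a 95% counting interval of 3523 to 775298. Folr2, the gene of folate receptor beta, had a ratio of 4860.1 (95% counting interval 1345 to 40132). Slc9b2, a sodium-proton exchanger gene, and Ereg, the gene of the growth factor epiregulin, had 2 counts and 1 count in MDSC, so their ratios of 3879 (1074 to 32026) and 4357 (782 to 172105) are loosely bounded. The intervals cover counting error only.

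On the MDSC side several of the genes at the highest levels encode alarmins, acute phase proteins and monocyte proteins. S100a8 and S100a9 encode the subunits of calprotectin, an antimicrobial protein of neutrophils and monocytes. S100a8 was at 3349.8 and 3474 CPM in MDSC and at 54.6, 60.7 and 53.4 CPM in TAM, 60.6-fold higher in MDSC (log2 fold change -5.92, SE 0.07). S100a9 was at 3305 and 3274 CPM against 75.9, 77.6 and 74.0 CPM. Saa3, a serum amyloid A gene, was at 2225 and 2659 CPM against 57.9 to 62.3 CPM. Hp, the gene of haptoglobin, which binds free hemoglobin, was at 1696 and 1883 CPM against 46.2 to 48.3 CPM. Chil3, the gene of the chitinase-like protein Ym1, was 15.2-fold higher in MDSC. Coro1a, an actin regulator gene of leukocytes, Plac8, and Alox5ap, the gene of the protein that presents arachidonate to 5-lipoxygenase, were 4.51-fold, 8.64-fold and 5.36-fold higher there. These genes were chosen for a log2 difference of at least 2 and no overlap between the groups. Their separation therefore follows from the choice. The others of this group at the highest levels were Ccr2, described with the chemoattractant receptors, and Ighm, the heavy chain of IgM, described with the markers of other cells.

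**Figure D2:**
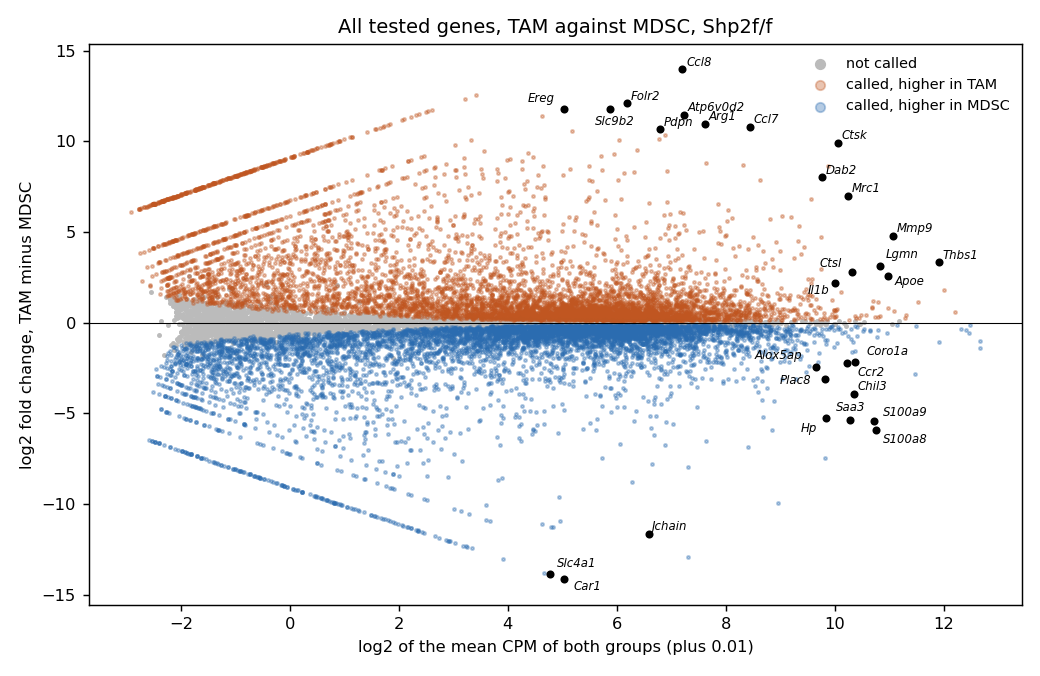
Log2 fold change (TAM minus MDSC) of the 15659 tested genes against the log2 of their mean CPM, with called genes in color and named genes in black. Genes on the oblique lines toward the left had 0 or few counts in one group, so their fitted fold change follows from the prior count of the fit and is no measured size. Thbs1 lies at the right on the TAM side at 3.33, and S100a8, S100a9 and Saa3 lie at -5.92, -5.44 and -5.35.

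Genes that define macrophages were mostly higher in TAM, with 14 of 16 higher, 1 lower and a median log2 fold change of 1.999. Mrc1, the gene of the mannose receptor, which binds glycans for uptake, was at 2395, 2445 and 2381 CPM in TAM and at 17.9 and 20.2 CPM in MDSC (log2 fold change 6.98, SE 0.08). Lgmn, the gene of the lysosomal protease legumain, was 8.83-fold higher. Siglec1 and Cd163, receptor genes of tissue macrophages, were at 318 to 326 CPM and 100.4 to 102 CPM in TAM against at most 20.04 and 7.64 CPM in MDSC. Mertk, the gene of a receptor for dying cells, was at 111 to 121 CPM against 11.3 and 11.9 CPM. Cx3cr1, a chemokine receptor gene of patrolling monocytes, was the member that went the other way, at 131 and 125 CPM in MDSC and at 26.9 to 27.5 CPM in TAM. The receptors and proteases thus had larger folds between these cells than Adgre1 and Csf1r, genes commonly used to mark macrophages.

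Of 20 neutrophil identity genes, 18 were higher in MDSC and 2 in TAM, and the median log2 fold change was -3.20. Csf3r, the receptor gene for G-CSF, was at 736 and 636 CPM in MDSC and at 115 to 119.7 CPM in TAM. Cxcr2, the receptor gene for the CXC chemokines that draw neutrophils, was at 141 and 111 CPM against 7.93 to 8.23 CPM. The exceptions were Mmp9 and Il1r2, the gene of the decoy receptor for interleukin-1, at 105 and 127 CPM in MDSC and at 193 to 199.8 CPM in TAM. Both are also genes of activated macrophages.

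Granule genes are made in sequence as neutrophils mature, azurophil granules first, at the promyelocyte stage, and specific and gelatinase granules later. Of 9 azurophil genes, 8 were higher in MDSC, with a median of -7.80, and the other, the chaperone gene Calr, was at 1126 to 1168 CPM in all libraries. Mpo, the gene of myeloperoxidase, was at 174 and 134 CPM in MDSC and at 0.0911, 0.741 and 0.168 CPM in TAM. Its log2 fold change of -8.78 (SE 0.26) became -10.17 without TAM replicate 2, which held the most Mpo of the TAM libraries. Prtn3, the gene of proteinase 3, was at 198 and 202 CPM against 0.759 to 1.06 CPM. Camp, the gene of the antimicrobial peptide cathelicidin in specific granules, was at 319.7 and 310.2 CPM in MDSC and at 0.698, 1.46 and 1.57 CPM in TAM (log2 fold change -7.96, SE 0.13). Ngp and Ltf, the genes of neutrophilic granule protein and lactoferrin, were at 729 and 624 CPM and at 434 and 358 CPM in MDSC, against at most 7.12 and 5.08 CPM in TAM. The MDSC libraries thus held transcripts of early and later granule stages. Lcn2, the gene of the iron-siderophore binding protein lipocalin-2, was at 900.2 and 922 CPM against 10.3, 11.96 and 22.4 CPM, with the highest TAM value in replicate 3.

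All 10 called genes of the 12 in the monocyte list were higher in MDSC, with a median log2 fold change of -1.85. F13a1, the gene of a coagulation factor XIII subunit, was at 1983 and 1897 CPM in MDSC and at 612 to 631 CPM in TAM. Vcan, a proteoglycan gene, was at 1075 and 895 CPM against 286 to 302 CPM. Fn1, the gene of fibronectin, was at 1633 and 1396 CPM against 890.3 to 915 CPM. Summed over the list, the level was 12571 and 12535 CPM of the total count in MDSC and 3347, 3408 and 3333 CPM in TAM. The sums did not overlap, and none of these named genes was near 0 in TAM. Of 12 dendritic cell genes, 4 were higher in TAM and 7 in MDSC (median -1.30). Irf4, a factor of dendritic and plasma cells, was at 16.9 and 14.3 CPM in MDSC and 3.67 to 5.01 CPM in TAM, and Fscn1, an actin-bundling gene of mature dendritic cells, was at 5.58 and 6.93 CPM and 18.4 to 20.01 CPM.

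Transcription factor genes followed the split in part. Of 20 macrophage and monocyte factors, 14 were higher in TAM and 5 in MDSC, with a median of 0.95. Egr2, an immediate early factor, was at 80.6, 82.8 and 84.8 CPM in TAM against 3.28 and 2.56 CPM (log2 fold change 4.82, SE 0.09). Mitf, a factor of lysosome and osteoclast genes, and Bhlhe40, a repressor, had log2 fold changes of 2.76 and 2.64, and Maf, a factor of mature macrophages, 2.49. The factors higher in MDSC included Irf8 and Irf5, which direct monocyte fate and inflammatory genes, at 236 and 243 CPM and at 374 and 389 CPM against 103 to 109 CPM and 173 to 178 CPM. Spi1, the gene of the myeloid master factor PU.1, was at 605 and 658 CPM in MDSC and at 454 to 480.1 CPM in TAM, so this factor of the whole myeloid lineage was high in both.

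Of 20 factors of granulocytes and their precursors, 14 were higher in MDSC and 6 in TAM, with a median of -1.04. Myb, a factor of dividing progenitors, was at 29.3 and 27.8 CPM against 0.672 to 0.941 CPM. Cebpe, which drives specific granule formation, was at 15.5 and 12.97 CPM against 1.03 to 1.27 CPM. Xbp1, a factor of secretory cells, was at 644 and 649.6 CPM against 189.6 to 204 CPM. Gata1, an erythroid, megakaryocyte and mast cell factor, was at 14.2 and 16.3 CPM in MDSC and at 0 in all TAM libraries, at least 549.8-fold higher in MDSC over a floor of 3 counts in the TAM group. The members higher in TAM included Junb and Fosl2, which are AP-1 components of many cell types, at 1218 to 1306 CPM and 792 to 845 CPM against 762 to 802 CPM and 208 to 233 CPM. Hmga2, a chromatin factor of embryonic and tumor cells, was at 19.2 to 21.1 CPM in TAM against 0.209 and 0.0884 CPM, and its log2 fold change of 7.03 was 7.75 without MDSC replicate 1.

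No receptor gene for a myeloid growth factor was called higher in TAM, although 40% of all tested genes were. Of 12, 10 were higher in MDSC with a median of -1.42, and Csf1r and Csf2rb2 did not pass the test. Il6ra, the receptor gene for interleukin-6, was at 555 and 523 CPM in MDSC and at 150.0 to 155 CPM in TAM. Csf2rb, the common receptor chain for GM-CSF, was at 706 and 654 CPM against 410.0 to 425 CPM. Flt3, a receptor gene of progenitors and dendritic cells, was at 32.9 and 32.8 CPM against 2.55 to 2.81 CPM. In Shp2f/fLysMcre mice, 2 of the 11 tested were called higher in TAM and 7 in MDSC, with a median of -0.52. Csf1r and Csf2rb2 were higher in TAM there, with log2 fold changes of 0.55 and 0.80.

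Signals through SHP-2 start at receptors of this kind. Of 18 genes of SHP-2 and its partners, 10 were higher in TAM and 6 in MDSC (median 0.23). Irs2 and Gab1, adaptor genes whose proteins bind SHP-2, differed by 1.88 (SE 0.07) and 1.49 (SE 0.05) on the log2 scale. Sirpa, the gene of the inhibitory receptor for CD47, was at 1609.9 to 1663 CPM in TAM and at 1194 and 1261 CPM in MDSC. Ptpn6, the gene of the related phosphatase SHP-1, was at 759 and 785 CPM in MDSC against 351 to 357 CPM. The kinase gene Lyn and the inhibitory receptor gene Pirb were also higher in MDSC (log2 fold changes -1.15 and -1.17). Pag1, an adaptor gene of membrane rafts, was at 143 and 118 CPM in MDSC and 35.4 to 38.2 CPM in TAM. Grb2, the adaptor gene of the Ras pathway, was at 307 to 319 CPM in all 5 libraries and was not called.

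Chemokines are small secreted proteins that attract leukocytes, and many of their genes lie in clusters. On chromosome 5, between 90759360 and 90905938 in GRCm38, Cxcl5, Ppbp, Pf4, Cxcl3, Cxcl1 and Cxcl2 were all higher in TAM, and their neighbor Cxcl15 had too few counts to be tested. On chromosome 11, between 82035571 and 82305690, Ccl2, Ccl7, Ccl12 and Ccl8 were higher in TAM, while Ccl11 and Ccl1 had too few counts. Short promoter stretches are shown for genes of this list because kappa B sites, bound by NF-kB factors, are a known feature of chemokine promoters. The motif was spelled GGG, 3 bases of any kind and TTCC, and was searched on both strands (in reverse GGAA, 3 bases of any kind and CCC) in the 250 bases before the start of each gene in the RefSeq promoters of GRCm38.p6. Of the 20 chemokine genes, 14 had a promoter entry, and Ccl2, Ccl4, Ccl5, Ccl7, Ccl24 and Cxcl16 had none. A match was found in 5 of the 14, namely Ccl9, Cxcl1, Cxcl2, Cxcl3 and Cxcl10, and in 4.65% of 32851 promoters of the table. Capitals mark the matches, and matches that overlap run together.
Cxcl1 (chr5:90891136-90891204, plus strand): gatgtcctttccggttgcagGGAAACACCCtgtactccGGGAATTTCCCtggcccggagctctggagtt
Cxcl2 (chr5:90903782-90903850, plus strand): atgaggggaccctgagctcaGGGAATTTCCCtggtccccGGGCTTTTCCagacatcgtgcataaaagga
Cxcl3 (chr5:90786008-90786080, plus strand): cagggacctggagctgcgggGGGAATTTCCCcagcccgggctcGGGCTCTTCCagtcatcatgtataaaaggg
Cxcl10 (chr5:92348964-92349068, minus strand): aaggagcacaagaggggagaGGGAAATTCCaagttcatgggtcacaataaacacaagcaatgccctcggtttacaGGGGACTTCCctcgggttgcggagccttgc
A match describes the letters and shows no binding.

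The neutrophil attractants of the chromosome 5 cluster were higher in TAM, from different levels in MDSC. Cxcl1 was at 0.805 and 0.649 CPM in MDSC and at 229.8, 255 and 241 CPM in TAM (log2 fold change 8.37, SE 0.11). Cxcl3 was at 0.716 and 0.206 CPM against 134, 145 and 139.9 CPM, a log2 fold change of 8.24 that was 9.38 without MDSC replicate 1 and 7.60 without MDSC replicate 2. Cxcl2, by contrast, was already at 199 and 188 CPM in MDSC and reached 1446, 1546 and 1565 CPM in TAM, 7.85-fold higher. These 3 genes share kappa B matches in the stretches above, with Cxcl1, Cxcl2 and Cxcl3 all holding the run GGGAATTTCCC. Pf4, the gene of platelet factor 4, was at 2.98 and 3.68 CPM in MDSC and at 785, 818 and 779.9 CPM in TAM, and Ppbp, the gene of pro-platelet basic protein, was 39.3-fold higher in TAM. Both are also platelet genes, and the other 7 tested genes of a platelet and megakaryocyte list, such as Itga2b and Gp9, were all higher in MDSC, with at most 0.971 CPM of any of them in a TAM library.

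The monocyte attractants of the chromosome 11 cluster were low in MDSC. Ccl2, the main ligand of CCR2, was at 16.1 and 18.7 CPM in MDSC and at 488, 487 and 487 CPM in TAM (log2 fold change 4.81, SE 0.07). Ccl7 was at 0.477 and 0.295 CPM against 674, 716 and 698 CPM, and Ccl12 at 0.149 and 0.0884 CPM against 126 to 139 CPM. Ccl9 and Ccl6, ligands of CCR1, stood at higher levels in MDSC than these, with Ccl9 at 508 and 556 CPM in MDSC and at 1615 to 1775 CPM in TAM, and Ccl6 at 438 and 459.7 CPM and 708 to 776 CPM. Cxcl10, which attracts T cells under interferon, was at 3.49 and 4.13 CPM against 244 to 253 CPM. Per gene length, the highest TAM levels in the list were those of Pf4 (3659 ± 103 TPM), Ccl7 (2885 ± 70.5 TPM) and Cxcl2 (2439.8 ± 78.2 TPM, SD, n = 3). The gene of the list that did not pass the test was Ccl24, at 1.67 to 2.59 CPM in all libraries.

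Receptors for chemoattractants were divided. Of 15 genes, 6 were higher in TAM and 9 in MDSC, with a median of -0.96. The receptor genes Ccr2 and Cxcr2 were 4.76-fold and 15.7-fold higher in MDSC, the opposite of the ligand genes Ccl2 and Cxcl1. Ccr1, the gene of a receptor of Ccl3 and Ccl5 among others, was higher in TAM, at 333 to 359 CPM against 247 and 248 CPM. Ccrl2, an atypical receptor gene that presents chemerin, was at 239 to 249 CPM against 53.6 and 54.0 CPM. C3ar1, the gene of the receptor for the complement fragment C3a, was at 518, 557 and 552 CPM in TAM and at 10.6 and 9.58 CPM in MDSC.

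**Figure D3:**
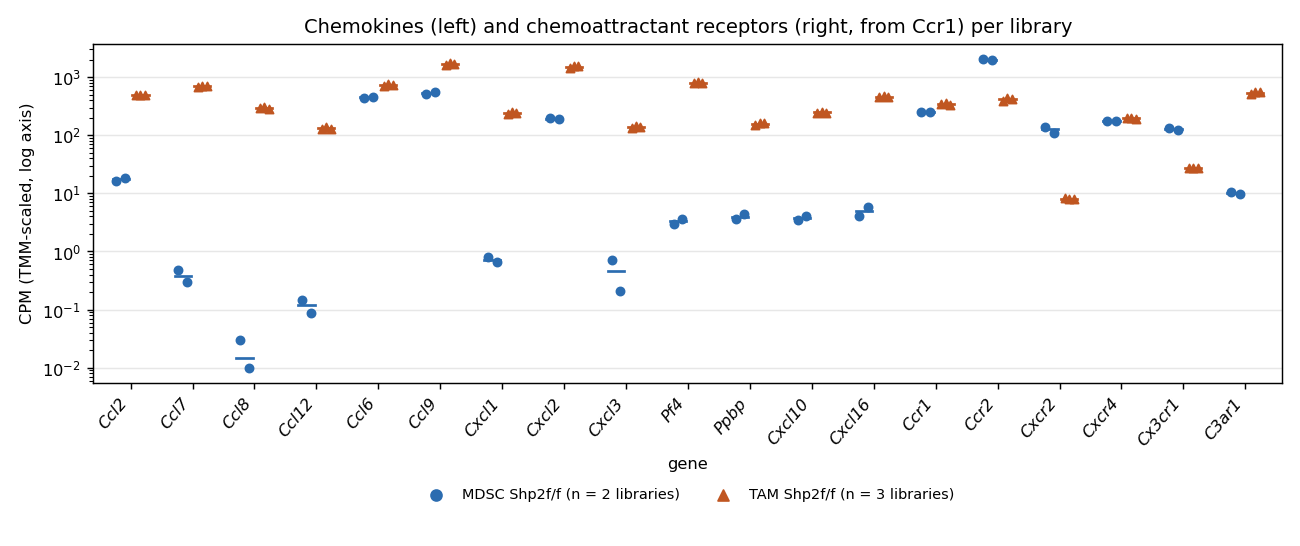
CPM per library, on a log axis, of 13 chemokine genes and 6 receptor genes (circles, MDSC, n = 2; triangles, TAM, n = 3; bars, group means; values under 0.01, including 0, are drawn at 0.01). The triangles lie above the circles for all chemokines shown, whereas among receptors Ccr2, Cxcr2 and Cx3cr1 lie higher in MDSC.

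Cytokine and inflammasome genes were mostly higher in TAM, with 13 of 20 higher, 6 lower and a median of 1.85. Vegfa, the gene of the angiogenic growth factor, was at 521, 513 and 519 CPM in TAM and at 7.76 and 6.28 CPM in MDSC (log2 fold change 6.20, SE 0.09). Il1b, the gene of interleukin-1 beta, was at 1657, 1704 and 1671 CPM against 380.2 and 364 CPM, and Il1rn, the gene of its antagonist, at 687 to 718 CPM against 28.2 and 24.2 CPM. Agonist and antagonist were thus both higher in TAM, with log2 fold changes of 2.17 and 4.74. Il10, an inhibitory cytokine gene, was at 49.5 to 51.1 CPM in TAM and at 0.835 and 0.796 CPM in MDSC, and Tnf was at 105 to 107 CPM against 13.6 and 14.7 CPM. Spp1, the gene of osteopontin, was at 836 to 900.2 CPM against 289.7 and 309 CPM. Nlrp3, the inflammasome sensor gene, was at 639 to 657 CPM against 120.4 and 121 CPM, whereas its adaptor gene Pycard was higher in MDSC. Pycard and Tgfb1, which encodes transforming growth factor beta, had log2 fold changes of -1.22 and -1.22. Tgfbi, a matrix gene that responds to this factor, was high in both, at 5646 and 5958 CPM in MDSC and 4441 to 4557 CPM in TAM. Gsdmd, the gene of the pore-forming gasdermin D, was at 169.8 to 174 CPM in all 5 libraries and was not called.

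Arginine is used by arginase and by nitric oxide synthase, and genes of both were higher in TAM. Of 9 genes of arginine and nitric oxide metabolism, 7 were higher in TAM and 2 in MDSC, with a median of 2.29. Beside Arg1, Nos2, the gene of inducible nitric oxide synthase, was at 21.9 to 23.7 CPM in TAM and at 2.30 and 1.89 CPM in MDSC. Odc1, the gene of ornithine decarboxylase, which makes polyamines from the product of arginase, was at 866, 839 and 839 CPM against 72.7 and 77.2 CPM. The arginine importer gene Slc7a1 was at 134 to 146 CPM against 31.1 and 26.1 CPM. These genes did not overlap between the groups. Sat1, which acetylates polyamines for export, was higher in MDSC, at 841 and 917 CPM against 259.5 to 262 CPM. Arg2, the mitochondrial arginase gene, was at 20.7 to 24.5 CPM in all libraries (log2 fold change -0.21, SE 0.06), and a DESeq2 Wald test did not call it.

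Genes that inhibit or costimulate T cells were divided, with 11 of 17 higher in TAM and 4 in MDSC (median 0.46). Cd274, the gene of PD-L1, was at 174 to 181 CPM in TAM against 14.6 and 11.9 CPM (log2 fold change 3.74, SE 0.08). Nt5e, the gene of CD73, which makes adenosine, was at 34.0 to 34.9 CPM in TAM and at 0.984 and 0.560 CPM in MDSC. Vsir, the gene of the checkpoint molecule VISTA, was on the other side, at 1240.0 and 1305 CPM in MDSC against 389 to 403 CPM. Lgals3, the gene of galectin-3, was at 985 and 1092 CPM in MDSC and at 1107 to 1137 CPM in TAM and was not called (log2 fold change 0.12, SE 0.05).

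Of 11 genes of class II antigen presentation, 7 were higher in MDSC and 2 in TAM, with a median of -0.34. Ciita, the gene of the transactivator of class II genes, was at 85.8 and 76.9 CPM in MDSC and at 10.96, 8.49 and 9.80 CPM in TAM, and H2-DMa, which loads peptides, was at 148 and 174 CPM against 48.5 to 51.9 CPM. The structural genes were close, with H2-Aa at 317 and 348 CPM in MDSC and at 348 to 360.3 CPM in TAM, not called, and H2-Eb1 at 193 and 210.3 CPM and 254 to 261 CPM. B cells also express class II genes. Their 10 markers were all higher in MDSC and summed to 74.4 and 60.0 CPM of the total count in MDSC and to 23.2, 22 and 23.5 CPM in TAM, and their part in the class II levels was not tested.

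Of 15 class I genes, 7 were higher in TAM and 5 in MDSC, with a median of 0.05. H2-K1, a classical class I gene, was at 2289 to 2381 CPM in TAM against 968 and 1059 CPM. H2-Q7, a nonclassical gene, was 16.6-fold higher in TAM. B2m, the light chain gene, was at 2494 to 2687 CPM against 1406 and 1499 CPM, whereas the immunoproteasome genes Psmb9 and Psmb10 were lower in TAM (log2 fold changes -0.53 and -0.54). Counts of these related class I genes are uncertain where reads match several of them.

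Complement genes were mostly higher in TAM, with 13 of 18 higher, 2 lower and a median of 1.17. C1qa, C1qb and C1qc encode the chains of C1q, which binds antibody complexes and dying cells and which macrophages make. C1qa was at 25.5 and 36.7 CPM in MDSC and at 1248, 1299.7 and 1241 CPM in TAM (log2 fold change 5.34, SE 0.15). C1qb and C1qc were likewise higher, at 1286 to 1332 CPM and 905 to 953 CPM against 63.7 and 83.2 CPM and 37.4 and 47.0 CPM. Cfp, the gene of properdin, which stabilizes the alternative pathway enzyme, was at 958 to 987 CPM against 341 and 381 CPM. C3, the gene of the central component, was higher in MDSC, at 852 and 787 CPM against 597 to 605 CPM.

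Receptors for uptake were divided but held some of the larger differences. Of 18 scavenger and lectin receptor genes, 11 were higher in TAM and 6 in MDSC (median 1.70). Stab1, the gene of stabilin-1, was at 1549.8, 1499 and 1452 CPM in TAM and at 14.2 and 12.6 CPM in MDSC (log2 fold change 6.81, SE 0.08). Msr1, the gene of scavenger receptor A, was at 623 to 643 CPM against 127 and 134 CPM. Scarb1, the receptor gene for high-density lipoprotein, and Clec10a, a lectin gene, went the other way, at 408 and 416 CPM and 41.5 and 51.5 CPM in MDSC against 83.1 to 84.2 CPM and 18.1 to 18.4 CPM. Clec7a, the gene of the beta-glucan receptor dectin-1, was at 238 to 251 CPM in all libraries and was not called. Of 7 Fc receptor genes, 4 were higher in TAM and 1 in MDSC (median 0.87). Fcrls, an Fc receptor-like gene, was at 122, 128 and 122 CPM in TAM and 0.239 and 0.147 CPM in MDSC. Fcgr1, the high-affinity IgG receptor gene, was at 494 to 526 CPM against 144 and 156 CPM. Fcgr3 was at 450.0 to 487 CPM in all libraries and was not called, and Fcer1g, the signaling chain these receptors share, was higher in MDSC (log2 fold change -0.33).

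Lysosome genes were higher in TAM, with 19 of 24 higher, 4 lower and a median of 0.62. Per gene length, Ctss, Ctsk and Ctsb, protease genes of the endosome and lysosome, stood at 6668 ± 331 TPM, 4676 ± 138 TPM and 3544 ± 54.4 TPM in TAM (SD, n = 3). In MDSC the same levels were 5018 ± 434 TPM, 4.33 ± 0.405 TPM and 892 ± 30.8 TPM (SD, n = 2). Cathepsin S transcript was thus high in both cell types, whereas cathepsin K transcript was high in TAM alone. Ctsl, the gene of cathepsin L, was at 2181 to 2309 CPM against 301 and 344 CPM, and Grn, the gene of the lysosomal glycoprotein progranulin, at 2437 to 2467 CPM against 1038 and 1165 CPM. Psap, the gene of prosaposin, which helps degrade sphingolipids, was higher in MDSC, at 8515 and 8931 CPM against 4221 to 4280.2 CPM, as was the acid lipase gene Lipa, at 152 and 147 CPM against 92.1 to 98.6 CPM.

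Genes of lipid-associated macrophages, which take up and export lipid, were mostly higher in TAM, with 16 of 20 higher, 3 lower and a median of 1.40. Abca1, the cholesterol exporter gene, was at 918, 864 and 879 CPM in TAM and at 19.2 and 14.2 CPM in MDSC (log2 fold change 5.73, SE 0.12). Lpl, the lipoprotein lipase gene, was at 256 to 281 CPM against 9.63 and 8.34 CPM, and Fabp5, a fatty acid carrier gene, at 623 to 663 CPM against 36.7 and 40.7 CPM. Gpnmb, the gene of a lysosomal membrane glycoprotein, was at 222 to 236 CPM against 18.3 and 17.4 CPM. Tyrobp, the adaptor of TREM2 and other receptors, went the other way, at 1038 and 1173 CPM in MDSC and 662 to 691 CPM in TAM. The lipid genes Abca1, Lpl and Fabp5 were thus higher in TAM, while the adaptor gene Tyrobp was not. Scarb1 and Lipa, lipid genes given above, were higher in MDSC.

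Matrix metalloproteinases and their inhibitors showed 11 of 15 genes higher in TAM and 2 higher in MDSC, with a median of 2.72. Mmp14, the gene of a membrane-bound collagenase, was at 1152, 1172 and 1142 CPM in TAM and at 20.2 and 21.2 CPM in MDSC. Mmp13, another collagenase gene, was at 161, 169 and 164 CPM against 0.179 and 0.265 CPM (log2 fold change 9.51, SE 0.11), and Mmp12, the macrophage elastase gene, at 49.8 to 51.7 CPM against 0.447 and 0.442 CPM. Adam8, a sheddase gene, was at 1218 to 1258 CPM against 237 and 222 CPM. Mmp8, the collagenase gene of neutrophil granules, was higher in MDSC, at 795 and 749 CPM against 37.9 to 42.1 CPM, as was Mmp19 (log2 fold change -0.50). Adam10, another sheddase gene, was at 180.1 to 220.1 CPM in all libraries and was not called. Collagen genes of stromal cells were also higher in TAM, as given with the markers of other cells.

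Genes that respond to type I interferon, the antiviral cytokine, were mostly higher in TAM. The share was 15 of 20, with 5 higher in MDSC and a median log2 fold change of 2.05. The interferon-stimulated response element, bound by the STAT and IRF factors of this pathway, was searched as GAAA, 2 bases of any kind and GAAA on both strands (in reverse TTTC, 2 bases of any kind and TTTC) in the same 250 bases. Of the 20 genes, 16 had a promoter entry, and 7 of these held a match, namely Ifit1, Ifit3, Ifitm2, Isg15, Oas3, Rsad2 and Stat2, against 2.98% of 32851 promoters. Stretches are shown for 3 genes higher in TAM and for Ifitm2, which was higher in MDSC, with the matches in capitals.
Ifit1 (chr19:34640765-34640833, plus strand): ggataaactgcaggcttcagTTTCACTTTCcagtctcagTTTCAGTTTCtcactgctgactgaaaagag
Ifit3 (chr19:34583353-34583436, plus strand): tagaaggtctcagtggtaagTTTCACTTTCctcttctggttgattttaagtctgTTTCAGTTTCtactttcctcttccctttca
Isg15 (chr4:156200855-156200916, minus strand): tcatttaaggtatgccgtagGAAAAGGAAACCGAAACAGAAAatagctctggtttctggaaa
Ifitm2 (chr7:140955978-140956027, minus strand): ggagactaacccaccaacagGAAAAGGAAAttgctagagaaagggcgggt
Matches thus stood in promoters of genes that differed in either direction.

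Rsad2, the gene of the antiviral enzyme viperin, was at 439, 449 and 439.5 CPM in TAM and at 22.8 and 19.2 CPM in MDSC (log2 fold change 4.40, SE 0.08). Ifit1, Ifit2 and Ifit3, which bind foreign RNA or assemble with proteins that do, were at 105 to 111, 212 to 214 and 122 to 126 CPM in TAM against 10.4 and 10.4, 8.35 and 8.17 and 6.68 and 6.22 CPM. Isg15, a ubiquitin-like modifier gene, was at 173 to 178 CPM against 22.6 and 25.4 CPM, and Irf7, which amplifies interferon, at 625 to 663 CPM against 124 and 133 CPM. The opposite direction was held by genes of membrane proteins that restrict virus entry. Ifitm1, Ifitm2, Ifitm3 and Ifitm6 were at 694 and 769, 368 and 409, 1020.0 and 1109 and 328 and 352 CPM in MDSC against 127 to 133, 198 to 204, 502 to 529.7 and 12.4 to 14.3 CPM in TAM. Of the 5 members higher in MDSC, 4 were these Ifitm genes and the other was Oas2.

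The phagocyte oxidase makes superoxide. Of 8 of its genes, 7 were higher in MDSC and 1 in TAM, with a median of -1.15. Cybb, the gene of the catalytic subunit, was at 1105 and 968 CPM in MDSC against 284 to 303 CPM in TAM. Ncf1, the gene of a cytosolic subunit, was at 392 and 378 CPM against 121 to 128 CPM. Hvcn1, a proton channel gene, was the exception, at 54.97 to 55.8 CPM in TAM and 14.9 and 11.5 CPM in MDSC.

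Leukocyte integrin and selectin genes were divided evenly, 7 higher in each cell type of 15 (median -0.10). Itgal, the gene of the alpha chain of LFA-1, was at 942 and 852 CPM in MDSC and at 44.8, 45.2 and 43.9 CPM in TAM (log2 fold change -4.33, SE 0.06). Itga4, of the VLA-4 chain, was at 629.9 and 515 CPM against 97.1 to 99.4 CPM, and Selplg, the gene of the ligand for P-selectin, at 708 and 747 CPM against 176 to 182 CPM. Itgb1, the common chain of matrix-binding integrins, was higher in TAM, at 696 to 734 CPM against 444 and 448 CPM. Of the 8 S100 genes, 7 were higher in MDSC, and S100a10, the annexin partner, was higher in TAM (log2 fold change 0.29).

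Toll-like receptor genes and their partners showed 6 higher in TAM and 9 in MDSC of 16, with a median of -0.34. Cd14, the lipopolysaccharide coreceptor gene, was at 1209 to 1279.9 CPM in TAM against 260.5 and 289 CPM. Tlr2, the receptor gene for bacterial lipoproteins, was at 409 to 428 CPM against 242 and 262 CPM. Myd88, the adaptor gene of most Toll-like receptors, and Tlr7, which senses RNA, were higher in MDSC, at 494 and 519.7 CPM and 219.9 and 211 CPM against 152 to 157 CPM and 106 to 119 CPM. Of 13 prostaglandin and leukotriene genes, 6 were higher in TAM and 5 in MDSC. Ptgs2, the gene of cyclooxygenase-2, was at 919.7, 988 and 986 CPM in TAM and at 67.7 and 57.9 CPM in MDSC, and Hpgds, a prostaglandin D synthase gene, was at 32.8 to 36.8 CPM against 1.52 and 2.09 CPM. Alox5 and Lta4h, of the leukotriene branch, were higher in MDSC, at 31.6 and 24.4 CPM and 225 and 238 CPM against 5.91 to 6.43 CPM and 67.1 to 73.6 CPM, as was Alox5ap.

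Most lists of metabolic genes had medians below 1 in size. Of 20 glycolysis genes, 17 were higher in TAM and 3 in MDSC, with a median of 0.60. Ldha, which makes lactate, was at 986 to 1028 CPM in TAM against 488 and 530.2 CPM, and Gapdh and Aldoa, of the shared lower pathway, had log2 fold changes of 0.54 and 0.65. The glucose transporter gene Slc2a3 and the regulatory gene Pfkfb4 were higher in MDSC, with 48.9 and 36.5 CPM and 129 and 128 CPM against 6.05 to 6.46 CPM and 40.9 to 41.6 CPM. Of 13 hypoxia genes, 10 were higher in TAM and 0 in MDSC, with a median of 1.72. Hilpda, a lipid droplet gene, was at 233 to 247 CPM against 10.1 and 10.3 CPM, Bnip3, a gene of mitochondrial clearance, at 71.2 to 82.4 CPM against 11.5 and 11.97 CPM, and Hif1a, the gene of the factor that drives the response, at 439 to 447 CPM against 137 and 117 CPM. Ndrg1, a further member, differed by a log2 fold change of 0.18.

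Iron genes were divided, with 6 of 13 higher in TAM and 4 in MDSC. Slc40a1, the gene of the iron exporter ferroportin, was at 65.3 and 61.2 CPM in MDSC and at 10.6 to 11.9 CPM in TAM, whereas Fth1, the ferritin heavy chain gene, and Tfrc, the transferrin receptor gene, were at 4005 to 4109 CPM and 395 to 434 CPM in TAM against 1749.8 and 1942 CPM and 91.6 and 79.7 CPM. Ftl1, the ferritin light chain gene, was at 2100.2 to 2497 CPM and was not called. Sterol and fatty acid synthesis genes were 9 higher in TAM and 4 in MDSC of 17 (median 0.25), with Sqle, of cholesterol synthesis, at 20.2 to 26.9 CPM against 7.96 and 7.99 CPM. Oxidative phosphorylation genes were 9 and 5 of 20 (median 0.11), with Atp5b, a synthase subunit gene, at 1246 to 1293 CPM against 748 and 785 CPM.

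Ribosomal protein genes were mostly lower in TAM by a small amount, 18 of 20 higher in MDSC, with a median of -0.46 (range -0.70 to 0.04). Rplp0 was at 1639 and 1791 CPM in MDSC and at 1225 to 1249 CPM in TAM. The genes of DNA replication and mitosis were mostly higher in TAM, 16 of 20, with 2 higher in MDSC and a median of 0.38. Mcm6, a replicative helicase gene, was at 259 to 274 CPM in TAM against 92.6 and 91.9 CPM. Top2a, of chromosome untangling, was at 254 to 262 CPM against 153 and 138 CPM. Mki67, the proliferation marker, was at 221 and 192 CPM in MDSC and 235, 227 and 228 CPM in TAM, called with a log2 fold change of 0.15 that did not pass without MDSC replicate 2 (0.06) or without any of the TAM replicates (0.14 to 0.17), or with total-count scaling. Rrm2 and Ccnb2, of nucleotide synthesis and mitotic entry, were higher in MDSC (log2 fold changes -0.46 and -0.67).

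**Figure D4:**
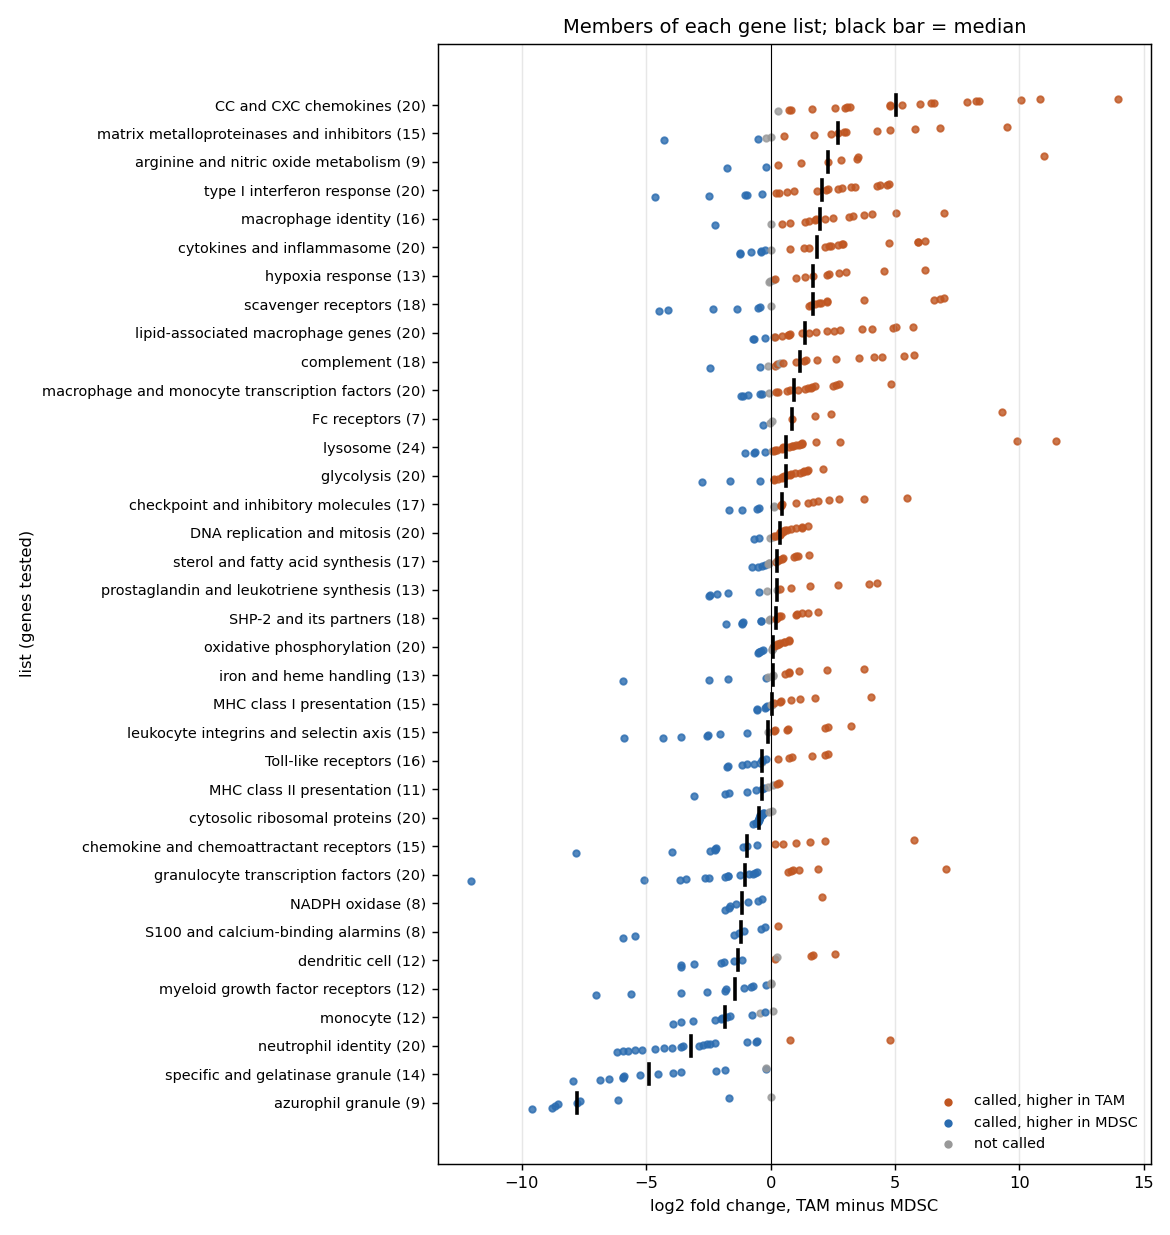
Log2 fold change (TAM minus MDSC) of each tested member of 36 gene lists, sorted by list median (black bar), with genes called higher in TAM or in MDSC in color and those not called in gray. The chemokine list has the highest median, 5.05, and the azurophil granule list the lowest, -7.80, while most metabolic lists lie near 0.

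Markers of other cells that bead or sort isolation can carry were measured next, as summed CPM of the total count, and their part in the other results was not tested. Erythroid genes summed to 503 and 538 CPM in MDSC and to 46.1 to 49.2 CPM in TAM, and all 14 were higher in MDSC (median -6.69). Car1 and Slc4a1, a carbonic anhydrase and an anion exchanger gene of red cells, were at 61.7 and 69.5 CPM and 59.0 and 50.4 CPM in MDSC and at 0 in all TAM libraries, at least 2365-fold and 1970.2-fold higher in MDSC. Hbb-bs, a beta globin gene, was at 96.0 and 109 CPM in MDSC against 3.52 to 4.92 CPM. Immunoglobulin genes lay far lower in TAM, and 161 were tested and 161 called higher in MDSC. A gene at or near 0 in TAM passed the filter on low counts only through MDSC and had to differ, so this count, like that of any list with genes near 0 in one group, is a description and no support. Ighm was at 2049 and 1534 CPM in MDSC and at 10.4, 10.1 and 10.3 CPM in TAM, and Jchain, which joins IgM and IgA, was at 225 and 160.0 CPM against 0.121, 0.0265 and 0.0280 CPM (log2 fold change -11.65, and -12.61 without TAM replicate 1). Reads of near-identical immunoglobulin segments may be split between genes. Pancreatic acinar genes were low in MDSC, 63.0 and 95.6 CPM summed, and all 11 were higher there than in TAM.

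Markers of stroma and vessels were higher in TAM. Of 16 fibroblast and stroma genes, 12 were higher in TAM and 1 in MDSC, and the list summed to 422, 424 and 413 CPM in TAM against 33.7 and 56.1 CPM. Col3a1, a collagen gene, was at 125, 121 and 122 CPM against 1.25 and 2.68 CPM (log2 fold change 5.96, and 6.61 without MDSC replicate 2), and Dcn, the proteoglycan gene decorin, at 87.4 to 90.1 CPM against 0.388 and 0.354 CPM. Pdgfra, the receptor that defines fibroblasts, was at 21.6 to 24.8 CPM against 0.0597 and 0.0884 CPM. Col1a1, the most abundant collagen gene of fibroblasts, was at 1.73 and 14.5 CPM in MDSC and 10.6, 13.05 and 11.8 CPM in TAM and was not called, but the MDSC libraries differed, and its log2 fold change of 0.54 was 2.77 and called without MDSC replicate 2. The smooth muscle actin gene Acta2 was higher in MDSC. Among vessel genes Kdr, a VEGF receptor gene, was at 35.6 to 37.4 CPM against 2.27 and 2.12 CPM, and 4 of 7 were higher in TAM. T cell genes summed to 102, 99.8 and 106 CPM in TAM and 15.8 and 14.3 CPM in MDSC, with Il7r at 68.6 to 72.6 CPM and Cd4 at 18.2 to 18.4 CPM in TAM making up most of it, and with the T cell receptor complex gene Cd3e at 0.820 to 1.15 CPM in all libraries.

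Pancreatic islet genes stood apart in TAM replicate 3. Ins2, an insulin gene, was at 795, 496 and 4375 CPM in the TAM libraries and at 5.04 and 4.30 CPM in MDSC, and Ins1 was at 342, 235 and 1323 CPM against 1.49 and 1.53 CPM. The 12 tested genes of the list were called higher in TAM, a count that follows in part from the filter, since those near 0 in MDSC passed it only through TAM. The level of the insulin genes was high in all 3 TAM libraries and several-fold higher in that one. Summed over the list, TAM held 1364, 908 and 7039 CPM of the total count, against 8.09 and 7.11 CPM in MDSC. Ins2 was also among the 10 genes at the highest levels on the TAM side, where its log2 fold change of 8.66 (SE 1.16) was 7.11 without that replicate.

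**Figure D5:**
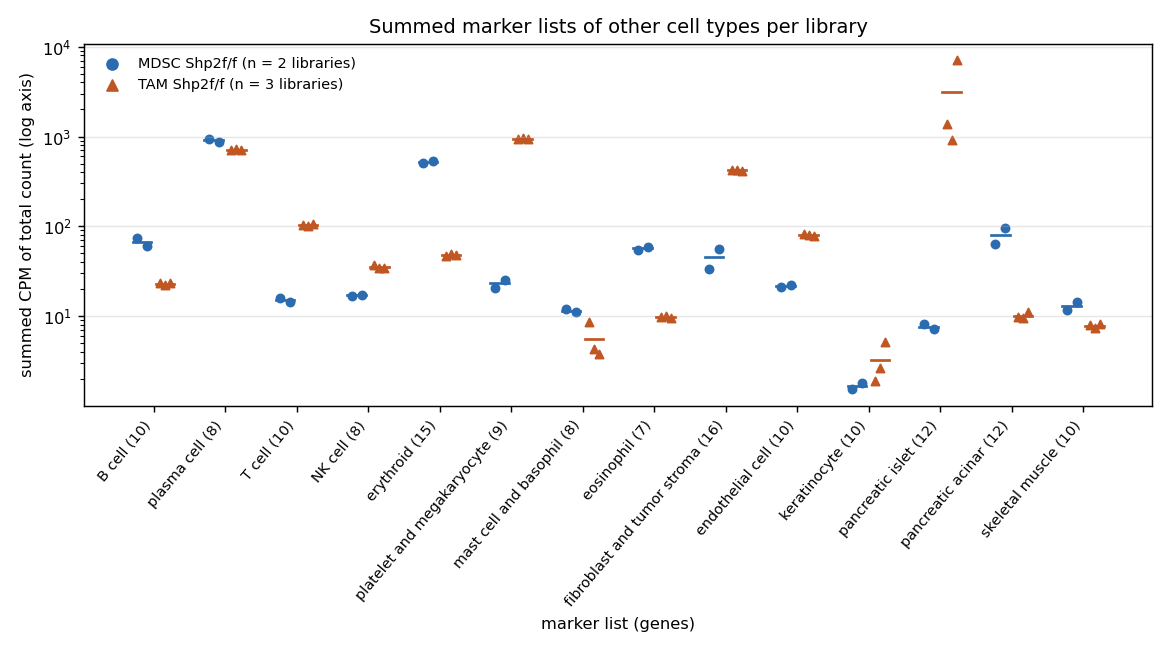
Summed CPM of the total count, on a log axis, of marker lists of other cell types in each library (circles, MDSC, n = 2; triangles, TAM, n = 3; bars, group means; numbers of genes in brackets). Erythroid, B cell and acinar sums lie higher in MDSC, fibroblast, platelet and islet sums higher in TAM, and the islet sum of TAM replicate 3 stands at 7039 CPM. The platelet sum in TAM is almost all Pf4 and Ppbp.

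The same contrast was fitted on the 3 TAM and 2 MDSC libraries of Shp2f/fLysMcre mice alone, in which Cre targets Ptpn11. It served as a repeat in samples that the comparison above did not use. There 9990 of 15741 tested genes, or 63.5%, were called, 4689 higher in TAM and 5301 in MDSC. With total-count scaling the split was 3696 and 6561. Of 15102 genes tested in both genotypes, 8641 were called in both, 8244 of them in the same direction, which is 69% of the 11941 Shp2f/f calls and 85.3% of the 9662 Shp2f/fLysMcre calls. The other 397 had opposite directions, 30 of them by at least 1 on the log2 scale in both genotypes. The difference between genotypes was not tested here. In the repeat, 19 of 20 chemokine genes were higher in TAM, 13 of 14 specific and gelatinase granule genes were higher in MDSC, and 15 of 16 macrophage genes were higher in TAM. The lists were chosen with earlier results of these data known. Members near 0 in a cell type again passed the filter only through the other, so these counts are a description and no support. Lists whose counts differed between the genotypes included the replication and mitosis genes, of which 0 were higher in TAM and 20 in MDSC in Shp2f/fLysMcre mice, and the fibroblast genes, of which 1 was higher in TAM and 3 in MDSC. Another was the Toll-like receptor list, with 9 of 16 higher in TAM and 2 in MDSC there (median 0.63). The 4 islet genes tested there were not called.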

How the data were processed

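RNA of 2 MDSC_Shp2f/f and 3 TAM_Shp2f/f libraries was compared, and groups were taken from the sample titles. Per the labels and methods, libraries were stranded, poly(A)-selected and paired-end, and the authors used FastQC 0.11.5, cutadapt 2.5, STAR 2.7.3a on GRCm38, and featureCounts of Subread 1.6.2 to make the deposited raw counts per Ensembl gene. The strand and multi-mapping settings of counting were not given in the sources used here. A deposited normalized table was not used because it scales each cell type separately, which would remove part of the contrast made here. Of 55421 genes in the table, 99.7% were matched to GENCODE M21 names. Genes were kept by filterByExpr (minimum count 10), scaled by TMM and tested with edgeR 4.0.16 (quasi-likelihood, R 4.3.3, limma 3.58.1), with Benjamini-Hochberg adjustment over all tested genes. The fit was checked on simulated counts with 200 changed genes. These are far fewer than the 12343 called here, so the check does not cover a contrast with so many differences. Alternatives included DESeq2 1.42.0, other scalings and filters, a replicate block and leaving out each library.

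Gene lists and the genes of the comparison were chosen with earlier results of these data known. The text names the isolation genes, the 10 called genes per direction with the highest means, the 8 largest changes per direction (mean of at least 50 CPM, replicates within a ratio of 3), the 4 highest-mean members of each list with the largest called change, members against their list, and the 5 members of at least 100 CPM closest to 0. A further 56 genes were chosen after their values were seen. Some genes that these rules name are not reported here. Each named value is CPM on TMM-scaled library sizes, and list sums are CPM of the total count.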

Additional observations from a re-analysis of the deposited data

Results flagged for a closer look

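For 23 of the 319 named genes, every TAM library stood beyond both MDSC libraries, on opposite sides in Shp2f/f and Shp2f/fLysMcre mice. The same share over all tested genes is not given here. Of 15102 genes tested in both genotypes, 397 were called in both with opposite directions. Groups without overlap were common, at 86.2% of tested genes in Shp2f/f mice, and 56 of the named genes were chosen after their values were seen. The difference between the genotypes was not tested here. Each gene is given with its log2 fold change (TAM minus MDSC) in Shp2f/f and then in Shp2f/fLysMcre mice.

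Ptpn11 itself, which Cre targets in the latter, was at 0.20 and -0.71. Its transcript was still present there, at a mean of 85.1 CPM in MDSC and 51.9 CPM in TAM. In Shp2f/f mice the means were 109 CPM in MDSC and 125 CPM in TAM, with each genotype scaled on its own. Among genes of DNA replication and mitosis, Mcm6 (1.52 and -0.26), Mki67 (0.15 and -1.84), Pcna (0.36 and -0.41) and Top2a (0.83 and -1.15) were higher in TAM with SHP-2 intact and lower in TAM in Shp2f/fLysMcre mice. The same directions were held by Ccr3 (0.64 and -0.76), Flt1 (1.87 and -0.44), Gzma (0.65 and -1.09), H2-Eb1 (0.35 and -0.25), Il1r2 (0.77 and -0.05) and Lck (0.24 and -0.96). Lower in TAM with SHP-2 intact and higher in TAM in Shp2f/fLysMcre mice were Arg2 (-0.21 and 0.75), Cd22 (-0.39 and 0.57), Fcer1g (-0.33 and 0.42), Grb2 (-0.021 and 0.41), Ifi30 (-0.34 and 0.17), Itgam (-0.10 and 0.49), Mmp19 (-0.50 and 1.05), Pla2g7 (-0.48 and 0.34), Rac1 (-0.36 and 0.11), Tgfbi (-0.37 and 0.22), Tlr13 (-0.20 and 0.54) and Unc93b1 (-0.68 and 0.11). Of these genes Itgam, Grb2 and Lck were not called in Shp2f/f mice, and Flt1, H2-Eb1, Ifi30, Il1r2, Rac1 and Unc93b1 were not called in Shp2f/fLysMcre mice.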

How the results depend on the processing

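The direction of all 294 called named genes was kept under every setting that gave a value for the gene, at most 14 each, and 9 of them (Acly, Arg2, Chga, Iapp, Krt10, Mki67, Ptpn11, Scg2 and Tlr13) passed the threshold no more in at least 1 setting. The number of genes called, 12343, was 12343 with total-count scaling, 12340 with DESeq2 size factors, 12293 without the 20 genes with most counts, 11735 with a DESeq2 Wald test, 11956 with voom, 11546 with all 10 samples, 12852 with no filter, 10850 with a filter of 1 CPM and 10961 at an adjusted p under 0.01. It was 11745 to 11915 when each library was left out. Asking for a difference of at least 1 on the log2 scale gave 6146 genes (39.2%), and testing against that size with glmTreat gave 4958. In Shp2f/fLysMcre, 9990 genes were called, and 7813 to 11587 when each library was left out. The replicate block called 12292 genes in Shp2f/f and 6803 in Shp2f/fLysMcre. The correlations of same-numbered deviations were 0.022 and 0.039 over only 2 pairs, so whether the numbers pair samples is not known from the labels or from these values, and they were used as names only.

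Values that changed sign all belonged to genes not called in the comparison. With total-count scaling the log2 fold change of Adam10 was -0.0155, of Calr -0.0213, of Clec7a -0.0121 and of Gsdmd -0.0106. Calr was at -0.000934 with the replicate block, -0.00141 without the 20 genes with most counts and -0.00455 with the filter of 1 CPM, and Cpa3 was at -0.0558 with voom. With each library left out in turn, the log2 fold change ran from -0.130 to 0.155 for Adam10, -0.0287 to 0.0286 for Calr, -0.182 to 0.0384 for Cd3e, -0.0216 to 0.0353 for Clec7a, -0.300 to 2.77 for Col1a1, -0.420 to 0.366 for Cpa3, -0.0581 to 0.114 for Csf2rb2, -0.0787 to 0.0350 for Fcgr3, -0.00535 to 0.200 for Ftl1 and -0.00782 to 0.0246 for Gsdmd. The cause was not tested.

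Of 728 list medians computed under the alternatives, 82 moved by more than the spread between replicates. Scaling moved a median by at most 0.023, and leaving out 1 library by at most 2.9, for the pancreatic acinar list, which was at -9.28 without TAM replicate 3. Depth limits genes with few counts in a group, whose folds are given with counting intervals or as lower bounds.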

Other observations

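Genes of osteoclasts, the bone-resorbing cells of the macrophage lineage, were looked at after Ctsk and Atp6v0d2 had been seen among the largest differences, so the list was chosen after values were seen and is given as values only. Of 18 tested, 16 were higher in TAM and 2 in MDSC, with a median log2 fold change of 2.95. Acp5, the gene of tartrate-resistant acid phosphatase, was at 1649.6, 1698 and 1616 CPM in TAM and at 59.1 and 65.6 CPM in MDSC. Tnfrsf11a, the gene of the receptor RANK, was at 149 to 157 CPM against 18.6 and 15.7 CPM, and Src, a kinase gene needed for bone resorption, at 156 to 161 CPM against 0.567 and 0.442 CPM. Dcstamp, a fusion gene, had 3 counts in MDSC and 7681 in TAM, a ratio of 1597 with a 95% counting interval of 547 to 7745. Car2, the carbonic anhydrase of osteoclasts and also of red cells, was higher in MDSC, at 120.2 and 129 CPM against 40.5 to 42.4 CPM.

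Genes of coagulation and plasminogen activation, likewise chosen after values were seen, were divided, 9 higher in TAM and 6 in MDSC of 15. F10, the gene of coagulation factor X, was at 432 and 470.1 CPM in MDSC and at 43.8 to 48.4 CPM in TAM. Plau, the gene of urokinase, was at 355, 361 and 344 CPM in TAM and at 11.7 and 10.5 CPM in MDSC.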
